A study of Nicotiana tabacum with 9 samples.

Results

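Binding by AmMIXTA and NtZFP8 was examined at 5 tobacco genes with descriptions of the R2R3-MYB type. They are a pair of genes described as transcription repressor MYB6-like (LOC107803458, here MYB6-like a, and LOC107793397, here MYB6-like b), the transcription factor MYB3-like (LOC107759231), and a pair described as transcription factor RAX3-like (LOC107779404, RAX3-like a, and LOC107789774, RAX3-like b). These 5 genes were taken by identifier from the 1884 genes that the authors' deposited gene tables tie to a peak of either protein, 1662 for AmMIXTA and 974 for NtZFP8. All peaks of both proteins on the assembly sequences of these genes were then read from the full peak lists. That the genes belong to the R2R3-MYB family rests on their descriptions, since no protein sequence was analysed here.

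R2R3-MYB proteins are plant transcription factors that bind DNA through a pair of MYB repeats, and many act together with basic helix-loop-helix and WD repeat proteins. They control phenylpropanoid and flavonoid synthesis, epidermal cell shape, trichome formation and the founding of side shoots. MIXTA itself is a family member from snapdragon, known for the conical shape of petal epidermal cells, so these genes are relatives of one of the proteins used as bait. Tobacco is an allotetraploid and often carries similar gene copies from both parents.

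In the assay, DNA affinity purification sequencing (DAP-seq), a HALO-tagged protein made in wheat germ extract is held on beads and mixed with sheared, adaptor-ligated genomic DNA, and the bound DNA is sequenced. The 9 samples comprised 3 replicates each of HALO-tagged AmMIXTA, HALO-tagged NtZFP8 (a tobacco C2H2 zinc finger protein) and, as the negative control, HALO-tagged nuclear-targeted GFP. All groups met 1000 ng of DNA from wild-type leaf primordia of Nicotiana tabacum cultivar Petit Havana SR1 for 1 h at 25 °C. The DNA carries no chromatin and the proteins are made outside the plant, so the assay shows which DNA a protein can hold and not whether it does so in a trichome. Each peak has 1 peak shape score from the authors, computed against GFP, with a p-value beside it and no column for single replicates. No error can therefore be given for any score, and read depth is unknown. Scores have no unit, rank peaks within a list, and are set side by side for the proteins without a test. The authors' criteria were a score above 2 and a p-value under 0.05. A score above 2 was reached by 20519 of 29197 AmMIXTA peaks (70.3%), whose highest p-value was 0.0227, and by 15209 of 20957 NtZFP8 peaks (72.6%), which were counted on the score alone. Peaks and genes with such a score are called past the criteria here.

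All 5 genes had an AmMIXTA peak past the criteria and 3 of the 5 had an NtZFP8 peak past them. Among all genes of the tables, 71.9% of those listed for AmMIXTA and 77.4% of those listed for NtZFP8 passed. The 5 were drawn from these tables, so nothing is read from the AmMIXTA count. Of the 1195 genes past the criteria for AmMIXTA, 592 (49.5%) were also past them for NtZFP8, so 3 of 5 is close to the share among all genes. MYB6-like a stood far above the other 4 genes for AmMIXTA and above both RAX3-like genes for NtZFP8. The RAX3-like genes lay above the median gene of the AmMIXTA table and on either side of that of the NtZFP8 table, while MYB6-like b and MYB3-like stood near the AmMIXTA median and had no NtZFP8 peak. The median highest score per gene past the criteria was 3.06 for AmMIXTA (interquartile range 2.42 to 4.55) and 3.54 for NtZFP8 (2.51 to 5.41).

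**Figure D1:**
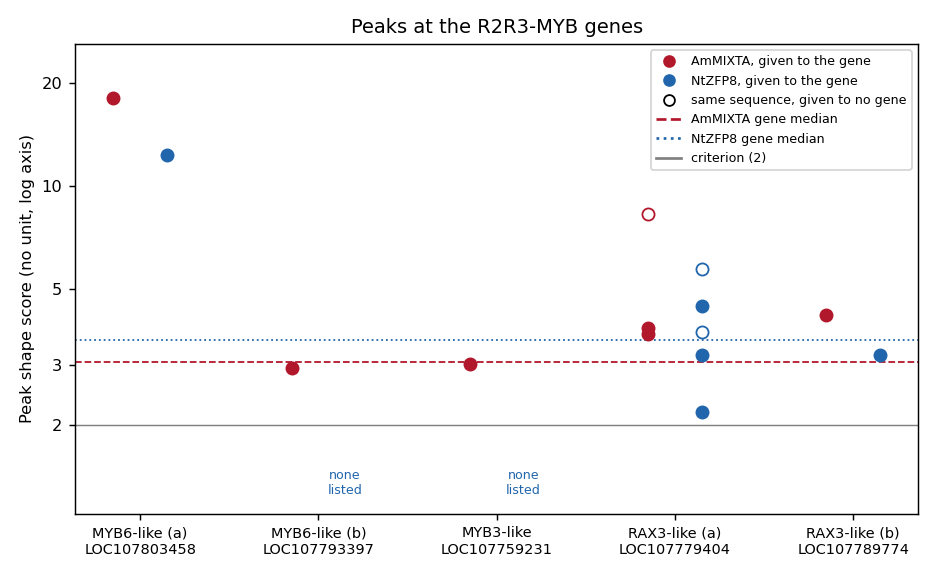
Peak shape scores (no unit, log axis) of all listed AmMIXTA (red) and NtZFP8 (blue) peaks on the assembly sequences of the 5 genes; filled points are peaks that the gene tables give to the gene, open points are peaks they give to no gene, and lines mark the criterion of 2 and the median highest scores of 3.06 and 3.54. MYB6-like a stands highest with 18.1 and 12.35, and MYB6-like b and MYB3-like have no NtZFP8 point.

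The genes described as repressors were an unlike pair. MYB6-like a had 1 AmMIXTA peak at NW_015937367.1, 36809 to 37219, with its centre at 36984, a score of 18.1 and a p-value of 1.71e-73 in the authors' deposited table. This was rank 18 of the 1195 AmMIXTA genes past the criteria, and rank 105 of the 20519 AmMIXTA peaks. Its 1 NtZFP8 peak lay at 37207 to 37500 with its centre at 37362, a score of 12.35 and a p-value of 2.46e-35 in the authors' deposited table. This was rank 43 of the 754 NtZFP8 genes past the criteria. No further peak of either protein was listed on the sequence at any score.

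Although both scores were high, the peaks at MYB6-like a stood side by side and not on top of each other. They overlapped by 13 bp, which is 3.2% of the AmMIXTA peak and 4.4% of the NtZFP8 peak, and their centres lay 378 bp apart. At 571 of the 592 genes found for both proteins (96.5%) peaks of the proteins overlapped by at least 1 bp, and the median of the largest overlap was 278 bp (interquartile range 253 to 291). Of the 571, 2 had a largest overlap of 13 bp or less, MYB6-like a included. Genes whose peaks did not overlap at all are outside this count. The median distance between closest centres at the 592 genes was 13 bp (interquartile range 6 to 25), and at 18 genes (3.04%) they were at least as far apart as at MYB6-like a. Of the 917 AmMIXTA peaks with a score above 10, 898 (97.9%) overlapped an NtZFP8 peak past the criteria. Among these 898, the peak at MYB6-like a was the only one whose largest overlap was between 1 and 13 bp, and the peaks with no overlap are left out. This last count was made after the overlap had been seen.

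MYB6-like b had a single AmMIXTA peak, with a score near the median, and no NtZFP8 peak. The peak lay at NW_015922466.1, 17437 to 17836, with its centre at 17713, a score of 2.94 and a p-value of 0.00166 in the authors' deposited table. It ranked 648 of 1195 genes. MYB3-like, named for an Arabidopsis repressor of phenylpropanoid genes, was alike in this. Its AmMIXTA peak lay at NW_015787837.1, 118796 to 119206, with its centre at 119032, a score of 3.02 and a p-value of 0.00128 in the authors' deposited table, and it ranked 614 of 1195. No NtZFP8 peak was listed on either sequence, down to the lowest listed score of 1.64. Among the 373 AmMIXTA genes whose highest score lay between 2.5 and 3.5, 149 (39.9%) were past the criteria for NtZFP8 and 159 (42.6%) had no NtZFP8 peak on their sequence, so the lack of one at this score was common.

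**Figure D2:**
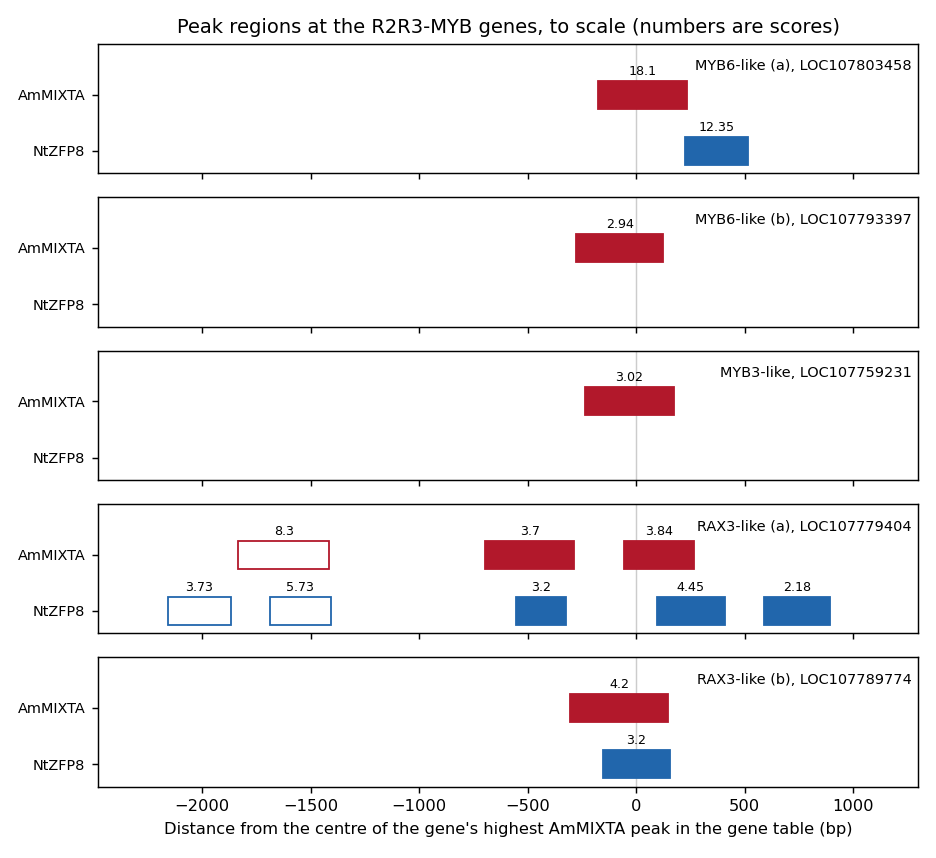
Peak regions at the 5 genes, drawn to scale as distance in bp from the centre of each gene's highest AmMIXTA peak in the gene table, with AmMIXTA (red) above NtZFP8 (blue) and the score over each region; open regions are given to no gene in the tables. The regions at MYB6-like a touch at their edges by 13 bp, those at RAX3-like b lie on each other, and RAX3-like a has 3 AmMIXTA and 5 NtZFP8 regions.

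The RAX3-like genes are named after REGULATOR OF AXILLARY MERISTEMS 3 of Arabidopsis, an R2R3-MYB factor that acts in the formation of side shoot meristems. RAX3-like b showed the usual arrangement of genes found for both proteins. Its AmMIXTA peak lay at NW_015917555.1, 21579 to 22029, with a score of 4.2 and a p-value of 1.35e-05 in the authors' deposited table. The NtZFP8 peak lay at 21730 to 22037 with a score of 3.2 and a p-value of 0.00068 in the authors' deposited table. They shared 300 bp, 66.5% of the AmMIXTA peak and 97.4% of the NtZFP8 peak, and their centres were 14 bp apart. The gene ranked 342 of 1195 for AmMIXTA and 420 of 754 for NtZFP8.

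RAX3-like a was the gene with most peaks among the 5. The gene tables gave it 2 AmMIXTA peaks on NW_015905140.1, centred at 27139 (score 3.7, p-value 0.000108 in the authors' deposited table) and at 27556 (score 3.84, p-value 6.16e-05). They gave it 3 NtZFP8 peaks, centred at 27129 (score 3.2, p-value 0.000688 in the authors' deposited table), 27789 (4.45, 4.34e-06) and 28309 (2.18, 0.01). Of the AmMIXTA genes past the criteria, 82 of 1195 (6.86%) had 2 or more such peaks in the table, and of the NtZFP8 genes 32 of 754 (4.24%) had 3 or more. RAX3-like a ranked 409 of 1195 for AmMIXTA (the highest 34.2%) and 260 of 754 for NtZFP8 (the highest 34.5%), so its places within the lists were alike. Among the peaks given to genes it had the higher score for NtZFP8, as did 251 of the 592 genes found for both proteins (42.4%). The AmMIXTA score divided by the NtZFP8 score was 0.86 at RAX3-like a, 1.31 at RAX3-like b and 1.47 at MYB6-like a, beside a median of 1.06 (interquartile range 0.87 to 1.32) over the 592 genes.

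The peaks of the proteins at RAX3-like a ran from near coincidence to separation. The AmMIXTA peak centred at 27139 (26860 to 27270) covered the whole of the NtZFP8 peak centred at 27129 (27004 to 27234), with 10 bp between centres. The AmMIXTA peak centred at 27556 (27501 to 27824) shared 175 bp with the NtZFP8 peak centred at 27789 (27650 to 27965), with 233 bp between centres. These were the highest peaks that the tables give to the gene, and at 73 of the 592 genes (12.3%) the highest peaks were at least as far apart. The NtZFP8 peak centred at 28309 (28146 to 28447) overlapped no AmMIXTA peak, the nearest ending 321 bp away.

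The highest peaks on the sequence of RAX3-like a were not among those given to the gene. An AmMIXTA peak at 25722 to 26142 had a score of 8.3, above 3.84, and an NtZFP8 peak at 25868 to 26150 had a score of 5.73, above 4.45. The centres of both were at position 26012 and they shared 275 bp. Of the 10057 AmMIXTA peaks that overlap an NtZFP8 peak, 343 (3.41%) have the same centre position as one. The AmMIXTA score of this pair divided by its NtZFP8 score was 1.45, so AmMIXTA has the higher score if these peaks are counted to the gene, the reverse of the 0.86 from the peaks given to it. The AmMIXTA peak ranked 1423 of 20519 (the highest 6.94%) and the NtZFP8 peak 2578 of 15209 (the highest 17.0%). A further NtZFP8 peak at 25398 to 25689 had a score of 3.73 and lay 32 bp from the edge of the AmMIXTA peak. The tables give these 3 peaks to no gene, and their centres lie at least 1117 bp from the nearest peak of the same protein given to RAX3-like a. Most listed peaks are given to no gene. The gene table has 1874 lines for 29197 listed AmMIXTA peaks and 1235 for 20957 listed NtZFP8 peaks. A peak past the criteria within 5000 bp that is given to no gene and is higher than the gene's own occurred at 31 of 1195 AmMIXTA genes (2.59%) and 25 of 754 NtZFP8 genes (3.32%). The sources used here do not give how the authors tied peaks to genes, and whether these peaks belong to RAX3-like a was not tested. Together the 3 AmMIXTA centres spanned 1544 bp and the 5 NtZFP8 centres 2773 bp. Of all peaks past the criteria, 3015 AmMIXTA peaks (14.7%) and 3439 NtZFP8 peaks (22.6%) had 2 or more others of the same protein within 5000 bp.

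The median lengths of these peaks lay within the interquartile ranges of their lists. The 7 AmMIXTA peaks on the sequences of the 5 genes were 324 to 451 bp long with a median of 411 bp, beside 385 bp (interquartile range 331 to 440) over all AmMIXTA peaks past the criteria. The 7 NtZFP8 peaks were 231 to 316 bp long with a median of 294 bp, beside 286 bp (259 to 305). None of the regions touched the start of its sequence. Where the peaks lie relative to the exons and starts of the genes was not analysed here, since no annotation of this assembly was used.

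**Figure D3:**
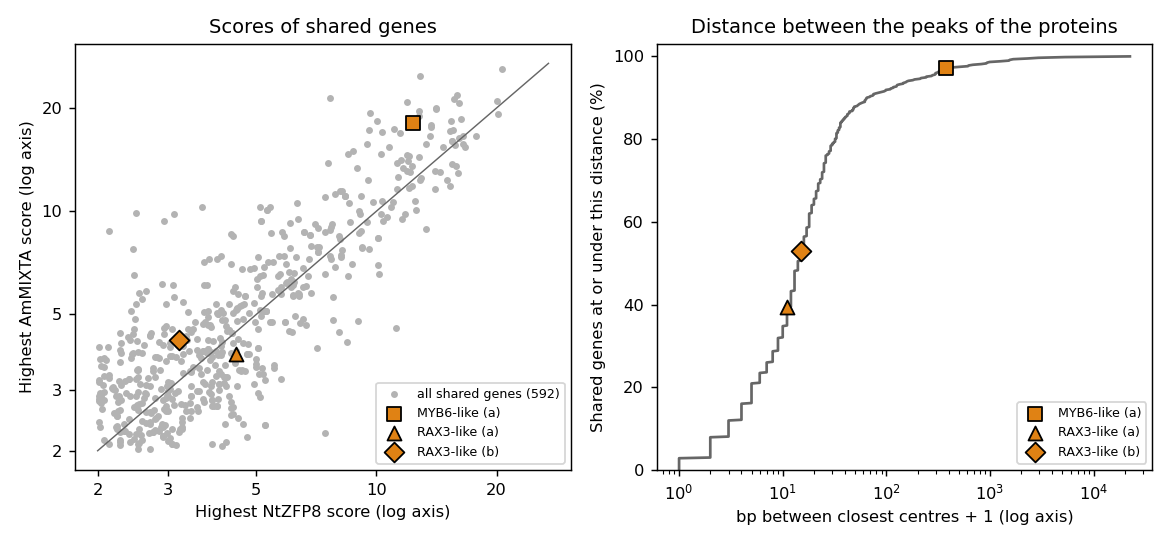
Left, highest AmMIXTA score against highest NtZFP8 score (both log axes, no unit) for the 592 genes past the criteria for both proteins, with a line of equal scores; right, the cumulative percent of these genes by the bp between their closest AmMIXTA and NtZFP8 centres (plus 1, log axis). MYB6-like a lies near the top of both scores and at 378 bp, and the RAX3-like genes lie at moderate scores and at 10 and 14 bp.

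The genes with the most similar pair of scores were found by the distance between log2 scores over the other 591 genes found for both proteins. Nearest to MYB6-like a were a ribulose bisphosphate carboxylase large chain-like gene (LOC107793518, 18.97 for AmMIXTA and 12.82 for NtZFP8, at a distance of 0.087), a trehalose-phosphate synthase gene (LOC107799906, 19.58 and 12.78, 0.124) and the uncharacterized LOC107772463 (16.91 and 11.47, 0.145). Nearest to RAX3-like a were the uncharacterized LOC107804933 (3.92 and 4.44), the LIM domain gene WLIM1-like (LOC107814489, 3.76 and 4.46) and a phosphopantetheine adenylyltransferase-like gene (LOC107785577, 3.85 and 4.31). Nearest to RAX3-like b were a peroxisomal long chain acyl-CoA synthetase 6 gene (LOC107780683, 4.19 and 3.22), an acyl-CoA--sterol O-acyltransferase 1-like gene (LOC107822145, 4.31 and 3.21) and a mannan endo-beta-mannosidase 6-like gene (LOC107822146, 4.31 and 3.21). None of these 9 genes has a MYB-type description.

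The wider family was read from descriptions (MYB, RAX and the names of other MYB-type factors), which gave 10 genes, all of them in the AmMIXTA table and 5 of them in the NtZFP8 table. Of all 1884 genes, 1662 stood in the AmMIXTA table and 974 in the NtZFP8 table, so nothing is read from these counts. Past the criteria were 9 for AmMIXTA and 5 for NtZFP8, and all 5 were among the 9. Over all genes of the tables, 71.9% of those listed for AmMIXTA and 77.4% of those listed for NtZFP8 passed. Over all genes, 592 of the 754 past the criteria for NtZFP8 (78.5%) were also past them for AmMIXTA, and the 49.5% given above is the share the other way. The median highest scores of the family genes past the criteria were 3.84 and 4.45, beside 3.06 and 3.54 over all genes. Both family medians are the scores of RAX3-like a. Without the 5 genes examined here, the medians were 3.59 for AmMIXTA (4 genes) and 6.03 for NtZFP8 (2 genes). These medians depend on the names counted. The 5 genes described as MYB had an AmMIXTA median of 2.98, and only 1 of them was found for NtZFP8 (12.35). The 5 family genes that are not among those examined here included ALWAYS EARLY 3-like (LOC107784961), related to a component of MYB-containing cell cycle complexes. It had 19.31 for AmMIXTA (69409 to 69778 of NW_015911627.1) and 9.65 for NtZFP8 (69492 to 69898). Its peaks shared 287 bp with centres 156 bp apart, so the other high-scoring family gene had peaks that lay on each other for most of their length. LHY-like (LOC107775222), named for a MYB-related circadian clock factor, had 4.21 for AmMIXTA and 2.41 for NtZFP8, with centres 18 bp apart and 223 bp shared. Myb-related protein 308-like (LOC107812106), named for a snapdragon repressor of phenolic metabolism, had 2.98 for AmMIXTA, MYB48-like (LOC107778763) had 2.02, and a second ALWAYS EARLY 3-like gene (LOC107808192) had 1.71, under the criterion. The AmMIXTA peaks of these last 3 overlapped no listed NtZFP8 peak. Of the 9 family genes past the criteria for AmMIXTA, the 5 with the highest scores were also found for NtZFP8 and the other 4 were not. This count is close to the 49.5% over all genes. Of all AmMIXTA peaks with a score of 2.5 to 3.5, 51.9% overlapped a listed NtZFP8 peak. Above a score of 10, 97.9% overlapped one past the criteria. Over the whole list, overlap was thus more common above 10 than at 2.5 to 3.5, although the partner had to pass the criteria only above 10. Scores between 3.5 and 10 were not counted in this way. Whether the order is particular to the family was not tested.

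**Figure D4:**
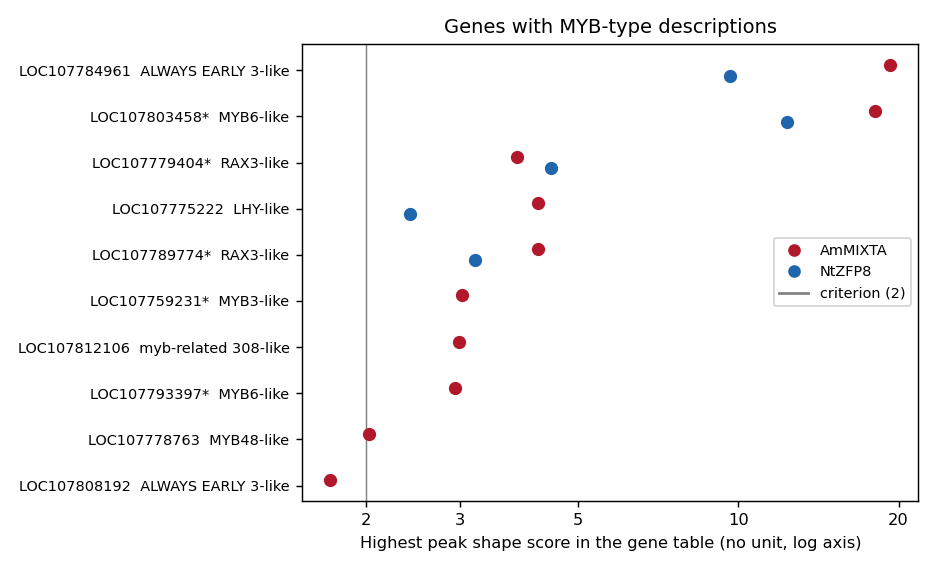
Highest peak shape score (no unit, log axis) in the gene table of AmMIXTA (red) and of NtZFP8 (blue) for the 10 genes with MYB-type descriptions; an asterisk marks the 5 genes examined here and the grey line the criterion of 2. The 5 genes with an NtZFP8 point are those with the highest AmMIXTA scores, from 3.84 to 19.31.

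Genes described as bHLH or WD repeat proteins, the classes that hold the usual partners of R2R3-MYB proteins, numbered 15 in the tables. They were matched on these words alone, and whether any acts with a MYB protein was not tested. Past the criteria were 10 of 11 listed for AmMIXTA and 8 of 10 listed for NtZFP8. Over all genes of the tables these shares were 71.9% and 77.4%. Of the 10 past the criteria for AmMIXTA, 5 were also past them for NtZFP8, beside 49.5% over all genes. The median highest scores were 3.13 and 2.78, beside 3.06 and 3.54 over all genes. None of the 15 was described as TRANSPARENT TESTA GLABRA or GLABRA 3, the partners best known from Arabidopsis trichomes. The 2 WD repeat genes with a score above 3 for AmMIXTA, LOC107775679 (4.16 for AmMIXTA and 2.85 for NtZFP8) and LOC107805314 (3.79 and 3.04), were found for both proteins, with centres 21 and 18 bp apart. The 4 bHLH genes above 3 for AmMIXTA were divided. Found for both proteins were bHLH101-like (LOC107828347, 11.47 and 8.19) and bHLH112-like (LOC107831217, 3.05 and 2.17). The AmMIXTA peaks of bHLH10-like (LOC107791312, 9.28) and bHLH30-like (LOC107832488, 3.21) overlapped no listed NtZFP8 peak.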

How the data were processed

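Per the labels' protocols, a protein replicate met 1 replicate of DNA. The series' design text states that reads were mapped to the tobacco genome of Sierro and colleagues and peaks were called against GFP. The sources used here do not give the aligner, the caller or the handling of replicates. The authors deposited, for each protein, a full list of peaks and a gene table, in which each peak has a peak shape score and a p-value. The deposited lists give 1 score and 1 p-value per peak and none per replicate, so the spread between replicates could not be measured and no test was made. Depth is unknown. P-values of NtZFP8 peaks were taken from the gene table only, and listed peaks were counted on the score. AmMIXTA p-values matched the one-sided normal tail of the score to within 4.3e-16. They therefore add nothing to the score and hold no spread between replicates. This comparison is given for AmMIXTA only.

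From the deposited lists, regions, centres, overlaps (at least 1 bp) and ranks were computed with Python 3.11.15, pandas 2.3.3 and numpy 2.4.6, and tested on simulated peaks. Regions running past a sequence start were taken from position 1. All 11 table lines of the 5 genes were found in the full lists. Blank descriptions (160 in the NtZFP8 table) were completed from the gene's other lines in either table. Identical sheets that name no protein, with none of the 5 genes, were not used.

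The genes and lists were chosen with earlier results of these data known. Named genes were the 5 genes with all their peaks, family genes past the criteria, table genes within 10000 bp of their peaks (none was found) and the 3 genes with the nearest pair of scores. The bHLH, WD repeat and below-criterion family genes were named after their values were seen. Motifs and sequences were not analysed here.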

Additional observations from a re-analysis of the deposited data

How the results depend on the processing

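The counts of the 5 genes held under the alternatives tried, apart from the cases given here. With a score above 3, 4 genes remained for AmMIXTA in place of 5, and 3 for NtZFP8 as before. Where 50% of both peaks had to be covered, 2 genes in place of 3 had overlapping peaks, the loss being MYB6-like a. Peaks given to no gene near those of the 5 genes numbered 3 within 5000 bp, 10000 bp or the whole sequence and 0 within 1000 bp. With descriptions as MYB only, without RAX3-like and other names, the family held 5 genes for AmMIXTA in place of 9 and 1 for NtZFP8 in place of 5. Of 24 alternative ranks of single genes, 14 stayed within the 95% Wilson interval of the reported one and 10 moved outside it. The interval is only a yardstick, since a rank in a full list is not a sample. Counting genes at any listed score left each rank unchanged and only lengthened the list, from 648 of 1195 to 648 of 1662 for MYB6-like b. No paired analysis was possible because the lists hold no value per replicate, and leaving out replicates was not run for the same reason. The motif alternatives were not run for want of promoter sequences. Near-identical gene copies could share reads in ways these lists do not show.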

Other observations

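All 5 genes have an entry in another tobacco assembly, ASM71507v2, which was used only to see which genes lie beside them. Of the 30 genes that flank them there, 3 on each side, 23 are protein-coding and 0 stand in either gene table at any listed score. Of the 1884 table genes, 1485 are present in that assembly. The share of all its genes that stand in the tables was not computed, so nothing is read from the 0. No other gene of the tables lies on the assembly sequences of the 5 genes in the authors' build.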
